A study of Homo sapiens with 6 samples.

Results

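The Notch, RBPJ and RUNX factors examined here are 10 genes, chosen by name from the 23459 gene rows of the table as host factors that work with RBPJ-driven transcription in B cells. They are the receptors NOTCH1 and NOTCH2, the DNA-binding protein RBPJ, the coactivator MAML2, the target repressors HES1 and HEY1, the transcription factors RUNX1, RUNX2 and RUNX3, and the RUNX partner CBFB. All 10 had a row, and 9 passed the filter on low counts; RUNX2 had no counts. All libraries came from Raji, an established human B cell line derived from a Burkitt's lymphoma (a tumour of germinal centre B cells) and carrying Epstein-Barr virus, after 5 days with lentivirus and 7 days of selection in 3 μg/ml puromycin. The control group of 3 libraries carried the non-target hairpin SHC002, and the other group of 3 carried OBF1sh1, the single hairpin against OBF1 (gene POU2AF1), a B cell coactivator that works with Oct factors. Whether the libraries of a group are separate cultures is not stated, so the p-values cover the spread among these libraries, possibly only technical spread.

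A Notch receptor that meets its ligand is cut by ADAM proteases and then by γ-secretase, and its released intracellular domain joins RBPJ and a Mastermind protein such as MAML2 on DNA to switch on genes such as HES1 and HEY1. Without that domain, RBPJ holds corepressors. In B cells infected by Epstein-Barr virus, the viral protein EBNA2 also reaches DNA through RBPJ. RUNX proteins bind DNA together with CBFB, which strengthens their binding, and in B cells infected by this virus RUNX3 is known to repress RUNX1.

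Total counts ranged from 29569281 to 32612429 per library. POU2AF1, the targeted transcript, held 512, 516 and 512 CPM (counts relative to the library total, after TMM scaling) in the control libraries and 244, 241 and 241 CPM in the OBF1 shRNA libraries, a 2.12-fold reduction (edgeR quasi-likelihood adjusted p = 1.25e-17). Of 9 B cell markers, 8 were tested and CD24 was at or near 0; their summed level was 2500 to 2570 CPM in controls against 4190 to 4250 CPM under the OBF1 hairpin. Most of that gain was MS4A1, which encodes CD20 (702 against 2078 CPM), while CD79A was 1.10-fold higher and CD79B lower (663.7 against 609.5 CPM); these 3 are named after their values were seen. The 8 T cell markers summed to at most 0.0635 CPM in controls and 0.192 CPM under the OBF1 hairpin, with CD3D, CD2, CD7 and TRAT1 at 0 in every library. Myeloid markers summed to 3.49 to 3.62 and 3.27 to 3.61 CPM. The 9 markers of 293T cells, used to package the virus, summed to 4.09 to 5.09 and 5.18 to 6.37 CPM, with KRT18, CDH2 and NEFM at 0; their part in the results was not tested.

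All 9 tested members passed the edgeR test, 4 higher and 5 lower in OBF1 shRNA cells, in a comparison where 75.4% of all 12010 tested genes passed it, 37.5% as higher and 37.9% as lower. MAML2, HES1, HEY1 and RUNX3 rose, and NOTCH1, NOTCH2, RBPJ, RUNX1 and CBFB fell. The 2 groups of libraries did not overlap for any of the 9, as was so for 76.6% of all tested genes. The changes were modest: RUNX1, at 1.69-fold, was the 1 member of 9 past 1.5-fold, against 23.3% of all tested genes that were both called and at least that far apart. The median size of change was 0.51 on the log2 scale over the 9 members and 0.29 over all tested genes. When only the library totals were used for scaling, log2 fold changes shifted by -0.11 (median) and the calls over all genes moved from 4508 higher and 4550 lower to 3476 higher and 5778 lower; the 9 members kept their directions and calls. In bulk RNA a lower level per cell and fewer cells that make a transcript cannot be told apart.

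**Figure D1:**
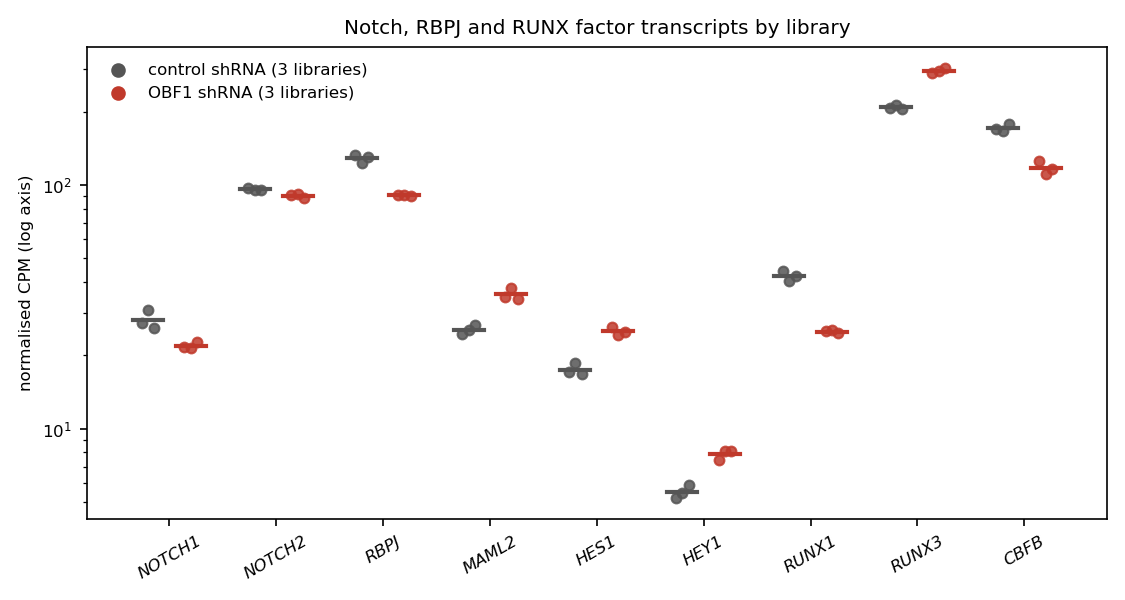
Normalised CPM (log axis) of the 9 tested members in each of the 6 libraries. Grey points are control shRNA libraries, red points OBF1 shRNA libraries, and short lines the group means. The groups are separate for each member, most narrowly for NOTCH2, with 96.2 and 90.5 CPM on average.

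Both Notch receptors expressed at more than trace level were lower. NOTCH1, a receptor often mutated in lymphoid leukaemias, held 27.1, 30.8 and 26.0 CPM in control libraries and 21.6, 21.4 and 22.6 CPM in OBF1 shRNA libraries. Control replicate 2 was the highest, and every OBF1 shRNA library lay below every control library. The fall was 1.28-fold (log2 fold change -0.36, SE 0.06, edgeR adjusted p = 3.55e-05). NOTCH2, the receptor that mouse B cells need to become marginal zone cells, held 97.2, 95.6 and 95.8 CPM against 90.9, 92.3 and 88.4 CPM. The gap between the groups was small beside that of the other members, and the difference of 1.06-fold passed the test narrowly (log2 fold change -0.09, SE 0.03, edgeR adjusted p = 0.0168). It lost the call when control replicate 1 was left out (edgeR adjusted p = 0.0659) and when OBF1 shRNA replicate 3 was left out (edgeR adjusted p = 0.109).

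Since a share within a library does not depend on scaling between libraries, the balance of the receptors was also compared that way, per deposited gene length. How that length was defined is not stated, and for NOTCH4 it is 64440 bases, far more than its transcripts hold, so every value that compares different genes per length rests on lengths of unknown definition. NOTCH2 made up 73.9%, 71.0% and 74.4% of the summed NOTCH1 and NOTCH2 level in control libraries and 76.8%, 77.3% and 75.6% in OBF1 shRNA libraries. The shares did not overlap, and the means differed by 3.46 points (73.1 ± 1.82% against 76.6 ± 0.907%, SD, n = 3). The two-sided exact permutation test gave p = 0.1, the smallest that 3 libraries against 3 allow. NOTCH2 reads can be shared with near copies of its first exons, the NOTCH2NL genes, and how the authors counted such reads is not given. NOTCH2NLA, named after its values were seen, had its own row and also fell (log2 fold change -0.28, edgeR adjusted p = 0.000561).

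RBPJ, through which both Notch and EBNA2 reach DNA, was clearly lower. It held 134, 124 and 131 CPM in control libraries and 91.0, 91.1 and 89.8 CPM in OBF1 shRNA libraries. The OBF1 shRNA libraries lay close together, and the lowest control library was well above them. The fall was 1.43-fold (log2 fold change -0.51, SE 0.03, edgeR adjusted p = 1.12e-10). MAML2, the Mastermind coactivator that docks on the complex of RBPJ and Notch, went the other way. Its level was 24.5, 25.5 and 26.6 CPM in controls against 34.7, 38.0 and 34.2 CPM under the OBF1 hairpin, a rise of 1.40-fold (log2 fold change 0.48, SE 0.05, edgeR adjusted p = 1.26e-07). The lowest OBF1 shRNA library was above the highest control library.

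HES1 and HEY1, repressors of the basic helix-loop-helix class and classical targets of Notch, both rose. HES1 held 17.0, 18.6 and 16.9 CPM in control libraries and 26.1, 24.2 and 25.0 CPM in OBF1 shRNA libraries. This 1.43-fold gain was by a small margin the largest rise among the members (log2 fold change 0.52, SE 0.06, edgeR adjusted p = 1.57e-07). HEY1, RUNX3 and MAML2 were close to it, at 0.51, 0.49 and 0.48, and the order of these rises was not tested. HEY1, the least abundant tested member, rested on 163 to 185 reads per control library and 211 to 253 reads per OBF1 shRNA library. Its level went from 5.22, 5.48 and 5.87 CPM to 7.42, 8.07 and 8.07 CPM, a 1.42-fold rise (log2 fold change 0.51, SE 0.09, edgeR adjusted p = 3.85e-05). For both genes all OBF1 shRNA libraries were above all control libraries.

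**Figure D2:**
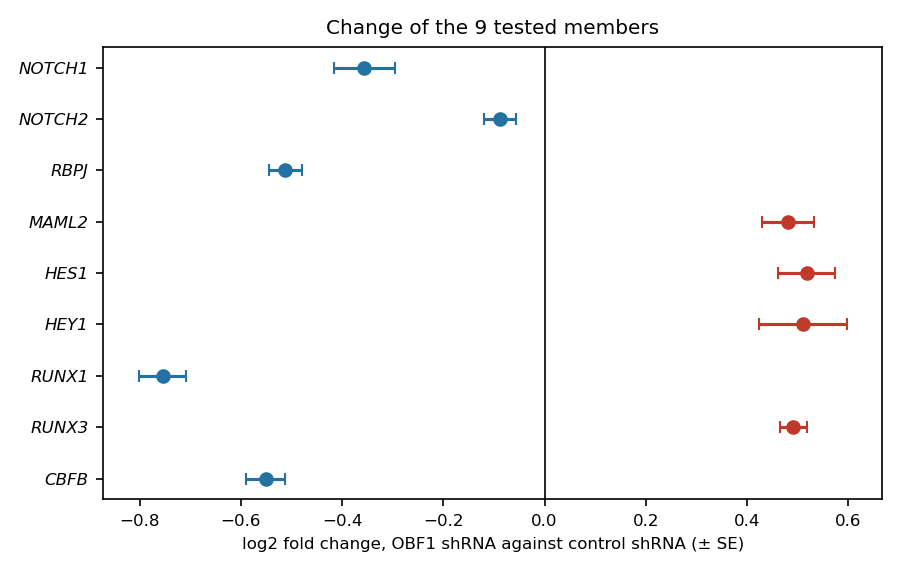
Log2 fold change of the 9 tested members, OBF1 shRNA against control shRNA, with bars of 1 standard error. MAML2, HES1, HEY1 and RUNX3 lie between 0.48 and 0.52, and RUNX1 at -0.75 is the farthest below 0.

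The promoters of HES1 and RBPJ are shown because they are the 2 members of the Notch branch whose windows held the core letters that RBPJ binds, TGGGAA, on either strand (capitals). The sequences are the 250 bases before a transcript start, from RefSeq on GRCh38.p14, printed 5′ to 3′ on the gene's strand. The HES1 stretch is chr3:194135898-194136147 on the plus strand, and the RBPJ stretch is chr4:26319496-26319745 on the plus strand, 1 of 5 RBPJ windows in the table.
HES1: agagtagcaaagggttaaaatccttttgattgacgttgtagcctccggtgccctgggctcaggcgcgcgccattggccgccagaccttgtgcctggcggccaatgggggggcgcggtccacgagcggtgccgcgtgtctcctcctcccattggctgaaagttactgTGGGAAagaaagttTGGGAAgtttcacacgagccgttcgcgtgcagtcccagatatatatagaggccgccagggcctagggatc
RBPJ: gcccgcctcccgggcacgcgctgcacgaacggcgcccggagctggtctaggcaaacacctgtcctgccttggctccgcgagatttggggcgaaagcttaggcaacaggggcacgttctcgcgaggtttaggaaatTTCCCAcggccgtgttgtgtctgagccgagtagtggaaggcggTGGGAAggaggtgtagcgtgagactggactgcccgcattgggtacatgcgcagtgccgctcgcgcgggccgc
In HES1 the letters occur at -84 and -70, counted from the first base of each match to the transcript start, both in the orientation TGGGAA. In RBPJ they occur at -115, as the reverse complement TTCCCA, and at -72.

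Such matches are common: TGGGAA or its reverse complement lies in 24% of the 35116 promoter windows of 300 bases in the table (250 before and 50 after the start). Windows were matched for 8 of the 10 members, all but HEY1 and CBFB, with 14 windows in all, and 3 of these held TGGGAA, in HES1, RBPJ and RUNX3. The RUNX core TGTGGT, on either strand, lay in 2 windows, of RUNX2 and RUNX3, against 13.1% of all windows. No member window held the octamer ATGCAAAT of the Oct factors, which 1.77% of all windows held. These counts describe letters in these windows and no binding was measured.

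The RUNX family changed in opposite directions, and RUNX3, already the main member, gained. RUNX3, the family member that EBNA2 is known to induce in B cells, held 208, 213 and 206 CPM in controls against 287, 293 and 301 CPM under the OBF1 hairpin. The rise of 1.41-fold had the smallest p of the 9 members (log2 fold change 0.49, SE 0.03, edgeR adjusted p = 9.72e-12). RUNX1, needed for the formation of blood stem cells, held 44.5, 40.3 and 42.2 CPM against 25.1, 25.5 and 24.6 CPM. It fell further than any other member (log2 fold change -0.75, SE 0.05, edgeR adjusted p = 7.23e-11). For each gene the libraries of the groups were far apart beside their spread within groups. RUNX2, the regulator of bone formation, had 0 counts in all 6 libraries; 3 counts, the limit that a count of 0 allows, correspond to between 0.0892 and 0.106 CPM per library, for counting error only. The annotation used for counting is not given in the sources used here, so whether reads could be assigned to the RUNX2 row was not tested, and the limit holds only if they could.

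CBFB, the partner that all RUNX proteins share, was lower. Its level was 170.5, 167.3 and 178.5 CPM in control libraries and 125.3, 110.8 and 116.5 CPM in OBF1 shRNA libraries. OBF1 shRNA replicate 1 was the highest of its group and still below every control library. The fall was 1.46-fold (log2 fold change -0.55, SE 0.04, edgeR adjusted p = 3.31e-10).

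Per deposited gene length, RUNX3 was far above RUNX1 in both groups. RUNX3 made up 90.5%, 91.5% and 90.9% of the summed RUNX level in control and 95.9%, 95.9% and 96.2% in OBF1 shRNA libraries. The groups did not overlap, and the mean share differed by 5.02 points (91.0 ± 0.514% against 96.0 ± 0.142%, SD, n = 3, two-sided exact permutation p = 0.1, the smallest possible). The ratio of RUNX3 to RUNX1, read per length, was 10.1 ± 0.640 in control and 23.9 ± 0.897 in OBF1 shRNA libraries (SD, n = 3). A second ratio, chosen after the values were seen and given with no test, sets RUNX1 plus RUNX3 against CBFB per length. It was 0.725 ± 0.0336 in controls and 1.42 ± 0.107 under the OBF1 hairpin (SD, n = 3), with 0.756 the highest control and 1.30 the lowest OBF1 shRNA value. Whether this ratio lies above or below 1 rests on the deposited lengths: in CPM, not divided by length, RUNX3 alone was above CBFB in every library of both groups. A change of the ratio between the groups does not depend on the CBFB length.

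**Figure D3:**
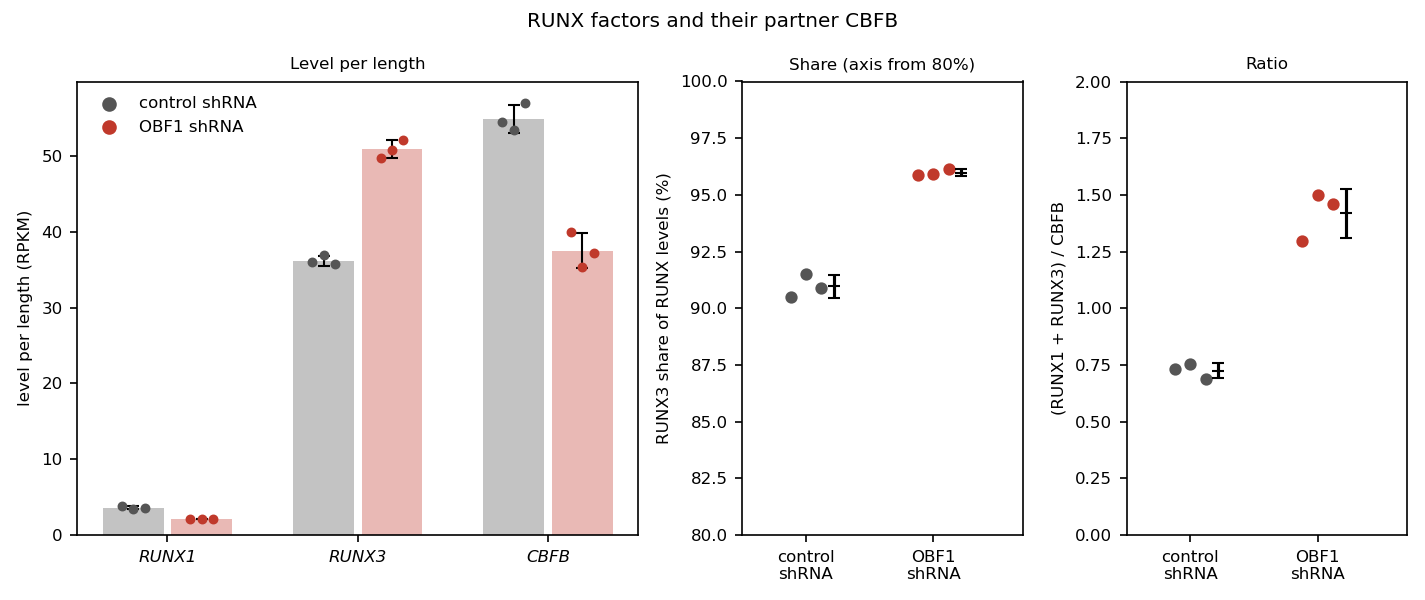
RUNX1, RUNX3 and CBFB. Left, level per length in RPKM (CPM per kilobase), with bars at the mean, points for the 3 libraries and error bars of 1 SD. Middle, RUNX3 as a share of the RUNX level (axis from 80%). Right, RUNX1 plus RUNX3 divided by CBFB. Black marks beside the points are the mean and 1 SD; in both right panels the OBF1 shRNA libraries lie above all control libraries.

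The distal windows of RUNX3 and RUNX2 are shown because RUNX3, the most abundant RUNX gene, and RUNX2, the one with no counts, share a run of RUNX core letters there, ACCACAgaACCACA, in which ACCACA is the reverse complement of TGTGGT. That run of 14 letters, picked after it was seen, lies on either strand in 3 of the 35116 windows, those of RUNX3, RUNX2 and the olfactory receptor gene OR52N2. The RUNX3 stretch is chr1:24965011-24965260 on the minus strand and the RUNX2 stretch is chr6:45328080-45328329 on the plus strand (RefSeq, GRCh38.p14). Capitals mark RUNX cores and, in RUNX3, also 1 TGGGAA.
RUNX3: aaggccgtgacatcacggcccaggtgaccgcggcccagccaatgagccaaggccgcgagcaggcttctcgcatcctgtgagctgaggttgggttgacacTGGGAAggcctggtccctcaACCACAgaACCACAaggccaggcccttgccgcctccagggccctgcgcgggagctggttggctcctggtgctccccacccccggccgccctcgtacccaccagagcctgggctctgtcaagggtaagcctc
RUNX2: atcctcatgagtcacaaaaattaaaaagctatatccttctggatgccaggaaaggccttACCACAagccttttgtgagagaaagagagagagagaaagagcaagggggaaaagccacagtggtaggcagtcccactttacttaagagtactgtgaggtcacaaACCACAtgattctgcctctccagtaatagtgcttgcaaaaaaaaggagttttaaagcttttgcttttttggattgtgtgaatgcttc
In RUNX3 the cores of the run start at -131 and -123 from the transcript start. In RUNX2 the printed cores start at -191 and -87, and the run itself lies past the start, at 17 and 25. The second RUNX3 window, downstream of this one, held neither motif, and neither did the second RUNX2 window. For RUNX1 only 1 window was matched, at chr21:34888650-34888949, and it held no RUNX core. Other RUNX1 starts were not examined.

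Levels of different genes compare only per length, and with the deposited lengths the order of the members differed between the groups at its top and its bottom. In control libraries CBFB led with 54.9 ± 1.85 RPKM, followed by RUNX3 with 36.2 ± 0.652 and RBPJ with 19.1 ± 0.753 RPKM (SD, n = 3). HES1 with 9.0, NOTCH2 with 7.60, MAML2 with 4.70, RUNX1 with 3.60, NOTCH1 with 2.80 and HEY1 with 2.27 RPKM came after them, and no neighbours in this order overlapped between libraries. In OBF1 shRNA libraries RUNX3 led with 50.9 ± 1.21 RPKM, ahead of CBFB with 37.5 ± 2.34 RPKM (SD, n = 3). RBPJ with 13.4 and HES1 with 12.9 RPKM then overlapped between libraries, as did NOTCH2 with 7.15 and MAML2 with 6.56 RPKM. HEY1 with 3.23 RPKM stood above NOTCH1 with 2.19 and RUNX1 with 2.13 RPKM, and the last pair overlapped. The ratio of HES1 to RBPJ per deposited length was 0.473 ± 0.0450 in control and 0.965 ± 0.0385 in OBF1 shRNA libraries (SD, n = 3; a ratio chosen after the values were seen). In CPM, not divided by length, HES1 was far below RBPJ in both groups, so how near the ratio comes to 1 rests on the deposited lengths.

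By a rule set on centred log2 CPM over the 6 libraries, the genes whose profile lay nearest to HES1, among 11025 with a mean of at least 1 CPM, were CD70, LSM6 and STUB1, at root mean square distances of 0.0236, 0.0236 and 0.0256 on the log2 scale. CD70 is the ligand of CD27, and its mean was 122.4 CPM in controls and 173.5 CPM under the OBF1 hairpin. Nearest to RUNX1 were ODR4, CREBZF and GIGYF1, at distances of 0.0138, 0.0207 and 0.0245. With 6 libraries in 2 groups, such nearness mostly says that the fold change was of like size.

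The other genes of the pathway come from lists drawn up with earlier results of these data known, so their directions are descriptions, and their counts are read beside the 37.5% of all tested genes that rose and the 37.9% that fell. Upstream of RBPJ, counts were near those shares for receptor cleavage and glycosylation. Ligands and the remaining receptors were scarce: DLL1, DLL3, DLL4 and JAG2 did not pass the count filter, and JAG1 (3.92 against 3.57 CPM) and NOTCH4 (1.03 against 1.19 CPM) did not pass the test. NOTCH3, the third receptor, was at 1.38 ± 0.122 CPM in controls and fell to 0.428 ± 0.127 (SD, n = 3, edgeR adjusted p = 7.77e-06). It is named after its values were seen and passed the count filter only through control libraries. Of 12 tested genes of receptor cleavage and glycosylation, 5 rose and 5 fell, or 4 and 7 with library sizes alone. ADAM17, a protease that can shed Notch, was 1.64-fold lower. NCSTN, a γ-secretase subunit, was 1.14-fold higher, and FURIN, which cleaves the receptor during its maturation, 1.26-fold higher. Adjusted p-values of these 3 genes from edgeR lay between 2.17e-12 for ADAM17 and 9.72e-05 for FURIN.

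Among genes of Notch trafficking and turnover, 7 of 15 tested members rose and 3 fell, or 5 and 5 with library sizes alone. The Deltex family genes DTX4 and DTX3L rose 1.43-fold and 1.46-fold, to 108 ± 2.05 and 98.5 ± 1.61 CPM (SD, n = 3). AAK1, a kinase of endocytosis, was 1.62-fold lower and MIB1, the ubiquitin ligase that activates Notch ligands, 1.24-fold lower. Median log2 fold changes were 0.14 for this list and -0.03 for receptor cleavage and glycosylation, beside -0.01 over all tested genes.

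The list of coactivators on RBPJ and the list of corepressors of RBPJ or HES proteins held genes that rose and genes that fell, as all tested genes did. Of 7 tested coactivators, 2 rose and 3 fell, or 1 and 5 with library sizes alone. The acetyltransferases EP300 and CREBBP, which the Notch complex recruits, were 1.35-fold and 1.39-fold lower, at 212 against 157 CPM and 179 against 129 CPM. KAT2B, another acetyltransferase, rose 1.56-fold from 31.9 to 49.7 CPM. MAML1, a Mastermind relative of MAML2, was 1.09-fold higher (edgeR adjusted p = 0.00707), a call absent with library sizes alone (edgeR adjusted p = 0.732). Of 14 tested genes listed as corepressors of RBPJ or HES proteins, 4 rose and 6 fell, or 3 and 8 with library sizes alone. HDAC1, a histone deacetylase, was 1.72-fold higher, at 398 ± 2.92 against 683 ± 9.0 CPM (SD, n = 3), and TLE5 1.60-fold higher. KDM5A, a histone demethylase that RBPJ can recruit, fell from 163 to 116 CPM, and SPEN, the large corepressor of RBPJ also called SHARP, from 295 to 243 CPM.

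Of 10 tested Notch target genes besides HES1 and HEY1, 7 rose and 1, MYC, fell, beside 37.5% and 37.9% of all tested genes. The median log2 fold change of this list was 1.30, beside -0.01 over all tested genes. Control libraries held 7, 7 and 8 reads of IL2RA and 12, 13 and 9 of CCND1. Both passed the count filter only through OBF1 shRNA libraries, so they could hardly enter except as rises. Apart from DTX1 (1.15-fold higher), MYC and CDKN1A, tested genes of the list had control means of at most 1.185 CPM. The median thus rests on scarce genes. CCND1 and DTX1 are named after their values were seen. HES2, HES4, HES5 and PTCRA, the last a T cell gene, had 0 counts in all libraries. CDKN1A, the cell cycle inhibitor p21, was 4.62-fold higher, at 15.0 ± 0.794 against 69.2 ± 2.70 CPM (SD, n = 3), and IL2RA, the interleukin-2 receptor chain CD25, went from 0.229 to 5.02 CPM. NRARP, a feedback inhibitor of Notch, rose from 0.870 ± 0.117 to 2.29 ± 0.290 CPM (SD, n = 3) and HES6 from 0.774 to 1.80 CPM; both are named after their values were seen. MYC fell 1.11-fold, from 254.8 to 229.9 CPM.

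Of 8 host genes known as targets of EBNA2 and RBPJ, RUNX3 among them, 7 rose and MYC fell, again beside 37.5% and 37.9% of all tested genes, with a median log2 fold change of 1.59. This list too was drawn up with the results known. CCR7, a homing receptor, and CR2, the complement receptor that the virus uses for entry, rose by 3.46 and 1.54 on the log2 scale (SE 0.04 and 0.03). The members named after their values were seen include FGR, a Src family kinase, at 73.8 against 229 CPM, and ACKR3, a scavenging chemokine receptor, at 22.8 against 52.9 CPM. The 7 that rose and RBPJ differed in direction in the same libraries, and MYC fell as RBPJ did. Viral transcripts were not analysed here.

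Of 12 tested cofactors of the RUNX proteins, 5 rose and 6 fell, close to an even division, as was that of all tested genes (37.5% higher and 37.9% lower). PRMT1, an arginine methyltransferase, rose 1.26-fold, and YAP1, a coactivator of the Hippo pathway, went from 0.840 to 2.93 CPM. KAT6A, an acetyltransferase also called MOZ, was 1.46-fold lower, at 160.9 against 109.9 CPM, and CBFA2T2, a corepressor of the ETO family, 1.36-fold lower. Of 15 RUNX target genes known from other blood cells and bone, 4 were tested and 2 rose, or 1 rose and 1 fell with library sizes alone. SPI1, encoding the transcription factor PU.1, rose 1.86-fold from 19.5 ± 0.955 to 36.3 ± 3.38 CPM (SD, n = 3). ITGAL, an integrin chain, was 1.14-fold higher (edgeR adjusted p = 0.00666), a call absent with library sizes alone (edgeR adjusted p = 0.231). The myeloid genes MPO and ELANE and the bone genes IBSP and COL10A1 were at 0 counts in all libraries.

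**Figure D4:**
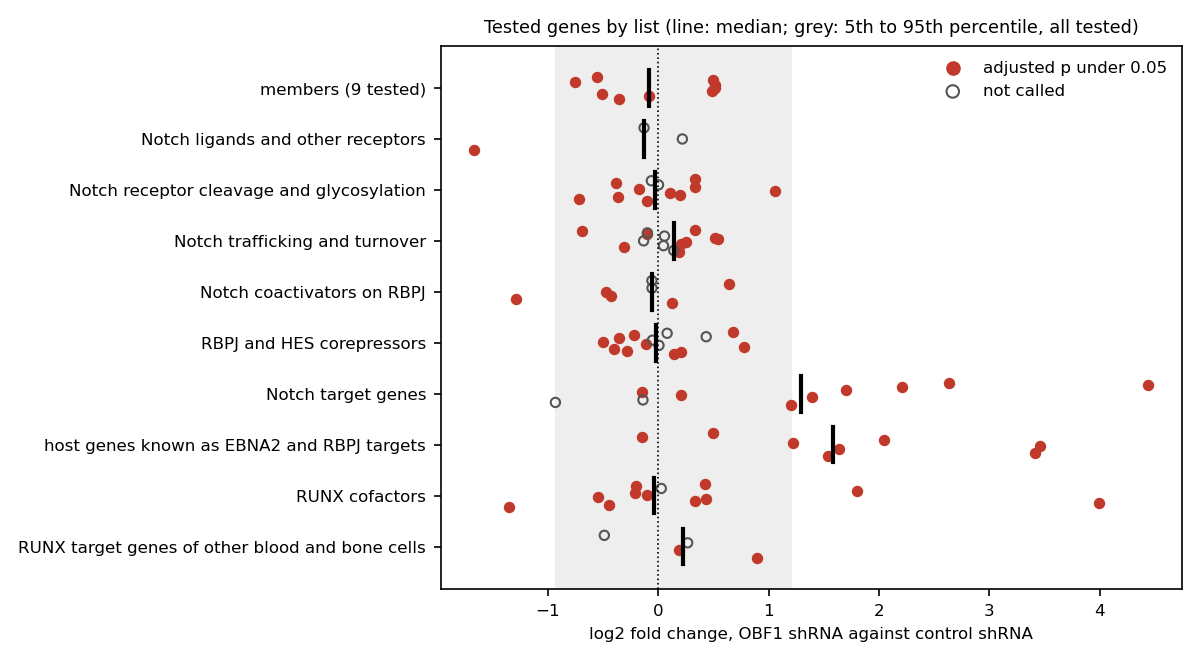
Log2 fold change, OBF1 shRNA against control shRNA, of each tested gene by list. Filled red points passed the edgeR test, open points did not, black lines are list medians, the dotted line is the median of all tested genes and the grey band holds their 5th to 95th percentile. The medians of Notch target genes and of EBNA2 and RBPJ targets, 1.30 and 1.59, lie to the right of the other lists. Apart from DTX1, MYC and CDKN1A, the tested Notch target genes had control means of at most 1.185 CPM.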

How the data were processed

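The authors deposited 1 table of raw read counts per gene for the 6 libraries, with numeric gene identifiers and, in a deposited column, a length per gene. Per the labels' protocols, the library kit was stranded and selected mRNA. The submitters' processing notes list hg19 and mm9; the sources used here name no aligner, annotation, strand setting or treatment of shared reads. Symbols came from a RefSeq table of GRCh38.p14, which matched 23308 rows; the 151 others held 0.115% to 0.138% of counts. The listed corepressor CIR1 is under CIRSR there.

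Counts were fitted with edgeR 4.0.16 in R 4.3.3 (filterByExpr with min.count 10, TMM factors, quasi-likelihood F test on all 6 libraries, no covariate), leaving 12010 genes, with Benjamini-Hochberg adjustment over all of them and a threshold of 0.05. The standard error is the log2 fold change divided by the square root of F. RPKM is CPM per kilobase of the deposited length, so an annotated length longer than the transcript made lowers it. On counts simulated for this comparison (11919 genes), 94% of genes changed 1.25-fold and 98% changed 1.5-fold were recovered, with 50 tested at each. Of the calls, 5.77% were genes left unchanged. The simulation gave every gene the same spread and changed few genes, in both directions equally. In the data 75.4% of tested genes were called, so these rates may not carry over. Replicates of a group differed by more than counting error (chi-square per degree of freedom 1.84 to 3.17). Alternatives were DESeq2 1.42.0, limma-voom (limma 3.58.1), other scaling, other filters, a block for the replicate number, and fits that omit 1 library each.

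The members and lists were chosen with earlier results of these data known. Named genes are POU2AF1, the members, up to 2 called genes in each direction with the smallest p from each list (mean of at least 1 CPM), and the 3 nearest profiles of the members that rose and fell furthest. Not every gene so chosen is reported here. No protein sequences were used here.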

Additional observations from a re-analysis of the deposited data

How the results depend on the processing

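Over 14 alternatives, MAML2, HES1, HEY1 and RUNX3 stayed called higher and NOTCH1, RBPJ, RUNX1 and CBFB called lower. NOTCH2 kept its direction and lost its call in 2 of the fits that leave out 1 library, so the number of lower members was 4 to 5 there, and 4 members were higher throughout. With library sizes alone the counts became 5 lower for trafficking and turnover, 1 higher and 5 lower for coactivators, and 1 higher and 1 lower for RUNX target genes; with upper-quartile factors they became 5 lower for coactivators and 1 lower for RUNX target genes. With 1 library left out, lower Notch target genes numbered 1 to 2 (the second was HES7, without control replicate 1 or OBF1 shRNA replicate 2) and lower RUNX target genes 0 to 1 (BGLAP, without control replicate 2). Not divided by length, the RUNX3 share differed by 8.99 points. With the replicate number as a block, 4 members were higher and 5 lower, and 8759 genes were called against 9058; it changed no member's call. Deviations of same-numbered libraries correlated at 0.01, -0.12 and -0.06, and those of differently numbered libraries at -0.05 to 0.11. No control library correlated best with its own number. These values show no pairing by number, but correlations this near 0 cannot exclude a shared origin. Depth limits HEY1 most among the tested members.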

Other observations

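Some listed genes under the level set for named genes, or outside its choice, changed by larger factors than the members; all were picked after their values were seen. CBFA2T3, a corepressor of the ETO family, had 1, 1 and 2 reads in control libraries and 23, 22 and 20 in OBF1 shRNA libraries. RUNX1T1, its relative and the fusion partner of RUNX1 in acute myeloid leukaemia, was at 5.07 ± 0.263 CPM in controls and fell to 1.98 ± 0.468 (SD, n = 3; edgeR, adjusted p = 8.11e-08). MAML3, the third Mastermind gene, fell from 0.742 to 0.295 CPM (edgeR adjusted p = 0.00252) while MAML2 rose. MAML3 passed the count filter only through control libraries, and CBFA2T3 only through OBF1 shRNA libraries. BHLHE40, a repressor of the same class as HES1, went from 0.731 to 4.54 CPM (edgeR adjusted p = 7.22e-11).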
